A study of Mus musculus with 28 samples.

Results

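The mitochondrial genome of the mouse carries 37 annotated genes, of which 13 code for proteins, 2 for ribosomal RNAs (rRNAs) and 22 for transfer RNAs (tRNAs). The 13 protein-coding genes are called messenger RNAs (mRNAs) here, counted by gene row, and they need not be separate transcripts. The rows examined here are those of the expression table whose gene symbol starts with mt-, and they number 15 of 43143. All 13 mRNAs and both rRNAs are among them. The 22 tRNA genes, which are between 59 and 75 bases long and of which 8 lie on the light strand, have no row there and were not analysed here.

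The 28 libraries came from a mouse line of Lewis lung carcinoma, 3LL, and from tumors that these cells formed under the skin of the flanks of albino C57BL/6 mice, which were 6-week-old males. There were 4 libraries in each of 7 groups. The cells in culture, kept in medium with serum, were wild-type (WT), KEAP1-KO, in which Keap1 was cut at exon 2 by CRISPR-Cas9, or DKO, in which the KEAP1-KO cells were cut again at exon 5 of Nrf2. In Experiment A each mouse carried a WT tumor in its left flank and a KEAP1-KO tumor in its right flank, and in Experiment B a KEAP1-KO tumor in its left and a DKO tumor in its right flank, and tumors were taken on day 10. The edited lines were grown from single colonies, so genotype and clone cannot be told apart, and within an experiment neither can genotype and flank. DKO and WT tumors come from different experiments. The labels do not say that the 4 libraries of a group come from separate cultures or animals, so the p-values measure the spread between these libraries, which may be technical. The extraction protocol in the labels names mouse liver, against the titles and the methods, which name cells and tumors.

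KEAP1 holds down NRF2, a transcription factor that switches on genes of the antioxidant response. Cell libraries held 5808966 to 7524278 recovered reads and tumor libraries 4222380 to 6048382. Nqo1, the classical NRF2 target, followed the labels: its mean log2 value was 9.01 in WT, 12.45 in KEAP1-KO and 6.77 in DKO cells, and 6.85, 12.41, 12.23 and 5.93 in the WT, KEAP1-KO (Experiment A), KEAP1-KO (Experiment B) and DKO tumors. Keap1 itself averaged 9.45 in WT cells and 8.88 in WT tumors, against 7.35 to 7.59 in the other 5 groups. The single row of Nfe2l2, the gene of NRF2, is a transcript row and did not pass the test in any comparison of adjacent genotypes, so it checks nothing.

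Mitochondrial DNA is a small circle that is transcribed from both strands into long precursors, from which the mRNAs, rRNAs and tRNAs are cut out. Its mRNAs encode only subunits of the respiratory chain and of ATP synthase: mt-Nd1 to mt-Nd6 and mt-Nd4l belong to complex I, mt-Cytb to complex III, mt-Co1, mt-Co2 and mt-Co3 to complex IV, and mt-Atp6 and mt-Atp8 to ATP synthase. The remaining subunits, the polymerase, the ribosomal proteins and the RNA-processing enzymes are made from nuclear genes. Copies of mitochondrial DNA have also been inserted into the nuclear chromosomes, and reads from such a copy look like reads from the mitochondrial gene.

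The genes lie close together, and 4 neighbouring pairs share bases. In the GRCm38 assembly, with genes taken from GENCODE vM21, mt-Atp8 (chrM:7766-7969, + strand) and mt-Atp6 (chrM:7927-8607, + strand) share 43 bases, mt-Nd4l (chrM:9877-10173, +) and mt-Nd4 (chrM:10167-11544, +) share 7, and mt-Atp6 and mt-Co3 (chrM:8607-9390, +) share 1. Of the mRNAs, only mt-Nd6 (chrM:13552-14070, − strand) is read from the light strand. It shares 14 bases at its end with mt-Nd5 (chrM:11742-13565, +), on the opposite strand. The kit kept the strand, but whether the counting used it is not given in the sources used here. Without strand, reads from mt-Nd6 and from the RNA opposite it could not be told apart. The stretches around the 3 longer overlaps are shown because reads there could belong to either gene, for mt-Nd5 and mt-Nd6 only if the counting did not use the strand, with the shared bases in capitals, on the + strand.
mt-Atp8 and mt-Atp6: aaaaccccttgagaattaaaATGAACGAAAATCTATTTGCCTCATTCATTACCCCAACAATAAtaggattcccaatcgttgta
mt-Nd4l and mt-Nd4: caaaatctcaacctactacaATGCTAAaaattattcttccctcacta
mt-Nd5 and mt-Nd6: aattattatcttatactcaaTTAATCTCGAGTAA

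A second kind of sharing concerned nuclear copies. A search of the member sequences against the annotated transcripts found that 7 of the 15 genes have a nearly identical copy in the nucleus (at most 1 mismatch in the aligned bases), and the copies of 6 of them have rows in the table. All of these copies lie side by side on the − strand of chromosome 1, between position 24611535 and position 24616197. They are Gm10925 (a copy of mt-Atp6), Gm28437 (mt-Co3), Gm28438 (mt-Nd3), Gm28661 (mt-Co2), Gm10222 (mt-Nd4l) and Gm29216 (the end of mt-Co1), and Gm28439, a copy of the first 876 bases of mt-Nd4, has no row. All are annotated as unprocessed pseudogenes. The start of mt-Co2 (chrM:7013-7696, + strand) is given first, because it is identical to that of Gm28661 (chr1:24614885-24615565, − strand) over all 681 aligned bases.
mt-Co2 and Gm28661: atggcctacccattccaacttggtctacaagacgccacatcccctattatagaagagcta

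Another copy of the same gene, Gm13341 (chr2:22587291-22587962, − strand), is only 95.9% identical, with 16 mismatches. Within the first 60 bases it differs by C25T and G57A, counted from 1 at the 5′ end of mt-Co2, with the mitochondrial base named first and the differing bases in capitals.
mt-Co2: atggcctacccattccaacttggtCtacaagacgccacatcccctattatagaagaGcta
Gm13341: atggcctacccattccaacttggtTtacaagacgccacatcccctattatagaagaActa
Between these extremes are mt-Nd3 (chrM:9459-9806, +) and Gm28438 (chr1:24612775-24613119, −), whose only difference is T3C, and mt-Co1 (chrM:5328-6872, +) and Gm29216 (chr1:24615706-24616197, −), whose only difference in the 483 aligned bases is A1066T. Their pairs are shown to make clear that a single base separates them, with that base in capitals and positions counted from the start of the mitochondrial gene.
mt-Nd3: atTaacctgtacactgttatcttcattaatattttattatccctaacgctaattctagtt
Gm28438: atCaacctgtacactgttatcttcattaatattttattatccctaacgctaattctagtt
mt-Co1: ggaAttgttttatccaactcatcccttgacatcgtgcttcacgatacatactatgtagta
Gm29216: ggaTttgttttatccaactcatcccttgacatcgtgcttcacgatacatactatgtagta

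The split of reads between gene and copy differed widely from gene to gene. Of the reads that mt-Co2 and Gm28661 hold together, the mt-Co2 row held only 12.8% on average, and the share ran from 1.27% to 31.9% over the 28 libraries. The row of the pseudogene was therefore the larger one in every library. The share was between 35.2% and 80.2% for mt-Co3, between 43.0% and 100% for mt-Atp6, between 67.7% and 96.6% for mt-Nd3 and between 89.7% and 95.2% for mt-Co1. mt-Nd4l held at least 99.9%. The split did not follow the identity of the sequences, since the copies of mt-Co2, mt-Atp6 and mt-Nd4l are all identical to the gene over the aligned bases. Gm13341, by contrast, was near the floor, averaging from 2.17 to 3.15 on the log2 scale in the 7 groups, where 2 is no read at all.

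For mt-Co2, mt-Co3 and mt-Atp6, adding the row of the copy brought replicates closer together in most groups. The median over the 7 groups of the SD between replicates was 0.42 log2 units for the mt-Co2 row and 0.0805 for the sum, which had the smaller SD in 6 of 7 groups. For mt-Co3 the SD went from 0.24 to 0.13 (smaller in 6 of 7 groups) and for mt-Atp6 from 0.14 to 0.0972 (5 of 7). For mt-Nd3 it went from 0.15 to 0.11 (4 of 7) and for mt-Co1 from 0.0955 to 0.0880 (3 of 7), and for mt-Nd4l it was 0.13 either way (0 of 7). The results below are given for the rows as deposited, and the sum of gene and copy is given beside them where it changes the outcome.

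**Figure D1:**
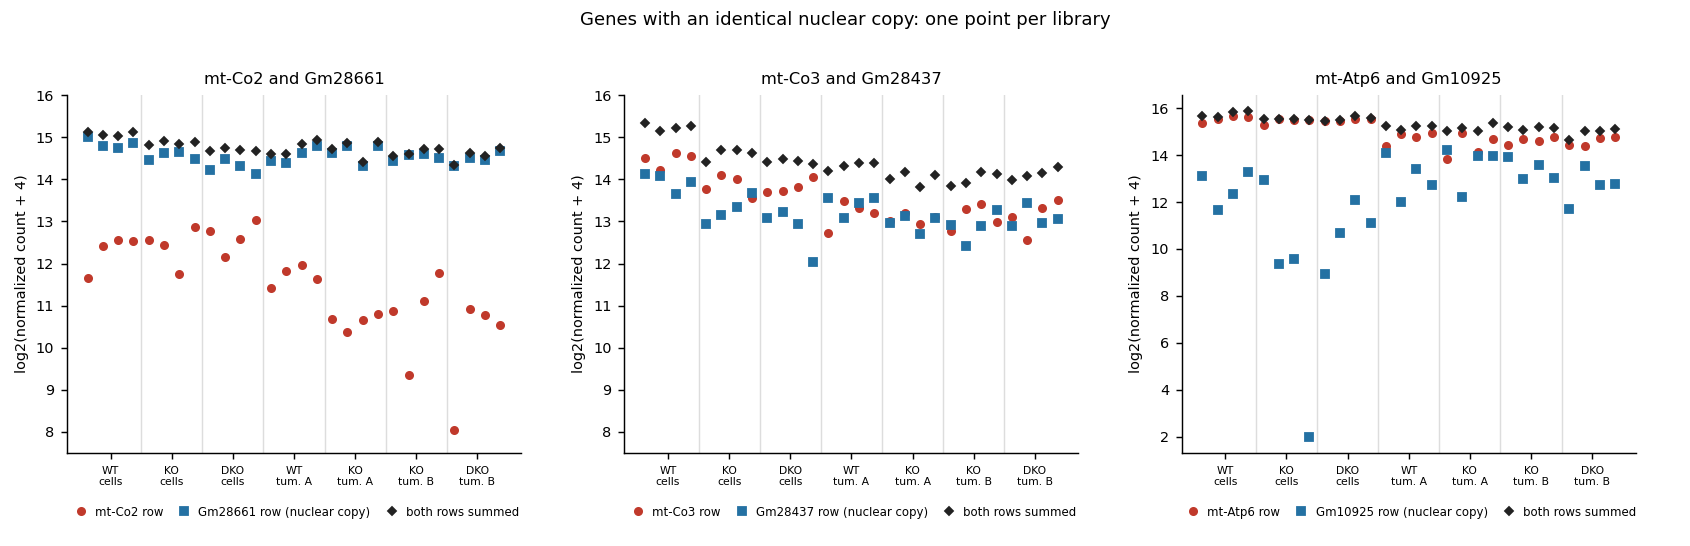
Values of mt-Co2, mt-Co3 and mt-Atp6 (red circles), of their nuclear copies (blue squares) and of both summed (black diamonds) in each of the 28 libraries, as log2(normalized count + 4), ordered by group on the x axis. The mt-Co2 points scatter between 8.05 and 13.03, while the sums lie between 14.33 and 15.13.

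The 13 mRNAs took between 3.76% and 5.34% of the reads of a library. The mean share was 4.97% ± 0.35 (SD, n = 4) in WT cells, 4.12% ± 0.17 in KEAP1-KO cells and 4.30% ± 0.26 in DKO cells. In the tumors it was 4.47% ± 0.17 for WT, 4.08% ± 0.30 for KEAP1-KO of Experiment A, 4.15% ± 0.0844 for KEAP1-KO of Experiment B and 4.44% ± 0.53 for DKO. WT cells lay apart from KEAP1-KO cells, with 4.53% to 5.34% against 3.89% to 4.28%, whereas the tumor groups of each experiment overlapped. The counting error of a share is small, at most 0.0189 percentage points to either side (95% Wilson interval), so the spread between libraries sets the precision. With the rows of the 6 nearly identical copies added, the shares ran from 4.78% to 5.88% in the group means.

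After rRNA depletion the 2 rRNAs still took between 1.02% and 2.45% of the reads. Relative to the mRNAs, there were between 23.3 and 56.8 rRNA reads for every 100 mRNA reads. The 2 lowest ratios, 23.8 and 23.3, were in the third and the fourth DKO cell library, and the other 2 of that group were at 38.9 and 43.4. The part of the depletion step in the rRNA values was not tested.

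The values of both rRNAs are what the depletion left, so their places in the order below need not be those of their RNA levels. Counts were divided by the full gene length, with no correction here for the length of reads or fragments. The shortest genes are mt-Atp8 (204 bases), mt-Nd4l (297) and mt-Nd3 (348). The part of read and fragment length in their values was not tested, so their places carry the same limit. Per length, mt-Rnr2, the large rRNA, had the highest mean over all 28 libraries, 56467 normalized counts per kilobase, and was above mt-Co1 in 16 of them. In each of the 3 cell groups mt-Atp6 was higher, with means of 70426, 66023 and 67895 in WT, KEAP1-KO and DKO cells against 66164, 63898 and 53793 for mt-Rnr2. Among the mRNAs the order of these levels per kilobase, over cells and tumors together, was mt-Co1 (50972), mt-Atp6 (50249), mt-Cytb (25629), mt-Nd1 (20931), mt-Nd4 (17078), mt-Nd2 (16858), mt-Co3 (16169), mt-Atp8 (13887), mt-Nd4l (13733), mt-Nd3 (8237), mt-Nd5 (6725), mt-Co2 (5357) and mt-Nd6 (2870), and mt-Rnr1, the small rRNA, came between the last pair with 3287. Neighbours in this order often traded places. mt-Co1 was above mt-Atp6 in 17 of 28 libraries, mt-Nd4 above mt-Nd2 in 19, and mt-Atp8 above mt-Nd4l in 12. By contrast, mt-Nd4l was above mt-Nd3 in all 28 and mt-Atp6 above mt-Cytb in 26. In the rows as deposited the order of the top pair differed between cells and tumors: mt-Atp6 had the higher group mean in the 3 cell groups and mt-Co1 in the 4 tumor groups. The order also depended on the copies. Summed with its copy, mt-Atp6 averaged 61438 normalized counts per kilobase, above mt-Co1 with its copy (54840) and mt-Rnr2, while mt-Co2 averaged 40889, mt-Co3 28757 and mt-Nd3 10100. By the sums only mt-Atp6 and mt-Co1 of the mRNAs were thus above mt-Co2. Summed, mt-Atp6 was above mt-Co1 in the KEAP1-KO tumors of Experiment A (53660 against 52764) and B (53431 against 49320). It was below mt-Co1 in the WT tumors (55293 against 57296) and the DKO tumors (46839 against 53793). mt-Nd6, the light-strand mRNA, was the lowest gene in 13 libraries, and mt-Co1 exceeded it 17.8-fold on average.

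**Figure D2:**
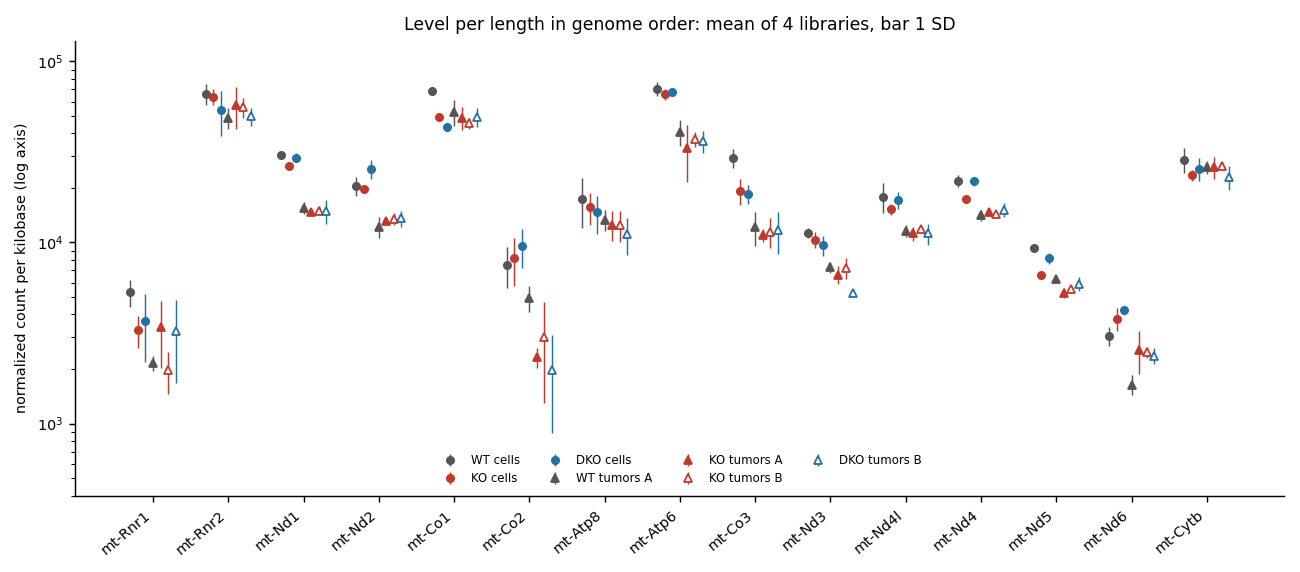
Normalized count per kilobase of gene length (log axis) for the 15 genes in genome order, as the mean of 4 libraries with 1 SD. Circles are cells and triangles tumors, grey is WT, red KEAP1-KO and blue DKO, and open triangles mark Experiment B. mt-Rnr2, mt-Co1 and mt-Atp6 have the highest means over all libraries in the rows as deposited, and mt-Nd6, mt-Rnr1 and mt-Co2 the lowest. The rRNAs are shown as left after rRNA depletion.

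In KEAP1-KO against WT tumors (Experiment A), a test across all rows with limma found 13.1% of 34215 rows changed at an adjusted p under 0.05, 5.61% higher and 7.49% lower. Of the 13 mitochondrial mRNAs, 1 rose and 1 fell, which is about the background share. The median difference of the 13 was -0.10 on the log2 scale, beside -0.03 over all rows, and 10 of the 13 differences were below 0. The called changes thus concerned single genes, in both directions.

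mt-Nd6, a complex I subunit and the only light-strand mRNA, was the gene that rose. Its log2 values were 9.55, 9.68, 9.73 and 9.97 in the WT tumors and 10.28, 10.84, 9.99 and 10.24 in the KEAP1-KO tumors of Experiment A. Every KEAP1-KO value exceeded every WT value, the closest pair being 9.97 and 9.99. The difference was 0.60 ± 0.14 (SE), a 1.52-fold rise (limma, adjusted p = 0.00885). Over 18 alternative settings the adjusted p ran from 0.00194 to 0.0569, and it missed the threshold in 1 of them, with only these 2 groups in the fit.

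mt-Nd5, the heavy-strand neighbour of mt-Nd6, moved the other way. Its values were 13.51, 13.48, 13.53 and 13.43 in WT and 13.18, 13.34, 13.25 and 13.12 in KEAP1-KO tumors, again without overlap. The log2 difference was -0.26 ± 0.0643 (limma, adjusted p = 0.0116, between 0.00270 and 0.118 over 18 settings and past the threshold in 17).

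The largest difference of all, -1.08 ± 0.54, belonged to mt-Co2 and did not pass the test (limma, adjusted p = 0.236). With only these 2 groups in the fit it passed (limma, adjusted p = 0.000998) and mt-Nd6 did not, so that 0 mRNAs were higher and 2 lower there, and over its 18 alternatives this was the only setting in which mt-Co2 passed. Its values were 11.41, 11.83, 11.97 and 11.63 in WT and 10.67, 10.36, 10.67 and 10.81 in KEAP1-KO tumors, and the groups did not overlap. Groups without overlap were found for 9.05% of all rows in this direction and for 7.24% in the other, and for 2 and 1 of the 13 mRNAs. Summed with Gm28661, mt-Co2 averaged 14.74 in WT and 14.72 in KEAP1-KO tumors. The share of the pair assigned to mt-Co2 was 12.3% ± 2.16 in WT and 5.96% ± 1.22 in KEAP1-KO tumors (SD, n = 4), while the sums differed by -0.03 ± 0.11 (limma, adjusted p = 0.920). For mt-Co3, a complex IV subunit, summing did the reverse: its own row differed by -0.12 (limma, adjusted p = 0.766), but summed with Gm28437 it fell by 0.30 ± 0.0887 (limma, adjusted p = 0.0344).

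The other 10 mRNAs, mt-Co3 included, did not pass in their own rows, with differences between -0.35 (mt-Atp6) and 0.10 (mt-Nd2). Under quantile normalization mt-Atp6 (-0.61, limma, adjusted p = 0.0193) and mt-Co1 (-0.21, limma, adjusted p = 0.0370) were called lower, so that 1 mRNA was higher and 3 lower there. Both rRNAs were above 0, mt-Rnr1 by 0.57 ± 0.33 and mt-Rnr2 by 0.21 ± 0.15, with adjusted p of 0.320 and 0.451 in limma. mt-Rnr1 stood at 10.80, 11.15, 11.07 and 11.002 in WT and at 11.82, 12.26, 11.26 and 10.96 in KEAP1-KO tumors. mt-Rnr2 stood at 16.03, 16.10, 16.32 and 16.44 in WT and at 16.54, 16.90, 16.05 and 16.24 in KEAP1-KO tumors. Both rRNAs overlapped between the groups.

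Tumors hold host cells too, and in bulk RNA fewer cells of a type and less RNA per cell cannot be told apart. Leukocyte markers such as Ptprc, which codes for CD45, fell for 8 of 8 genes in the KEAP1-KO tumors of Experiment A, with a median difference of -2.25, and macrophage markers for 8 of 9. The summed level of the 8 leukocyte markers was between 3120 and 3927 normalized counts in WT and between 756 and 830 in KEAP1-KO tumors, and none of the 8 was at 0 in all libraries of either group. Endothelial markers (0 of 7) and red blood cell markers (0 of 6) had no called gene, and 1 of 7 fibroblast and 1 of 3 adipocyte markers fell. The part of these host cells in the mitochondrial differences was not tested.

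In DKO against KEAP1-KO tumors (Experiment B), 8.86% of all rows were called, 4.22% higher and 4.64% lower, and 1 of the 13 mRNAs, mt-Nd3. This complex I subunit fell. Its values were 11.03, 11.30, 11.34 and 11.50 in KEAP1-KO and 10.83, 10.88, 10.74 and 10.92 in DKO tumors, so the groups did not overlap, which held for 7.49% of all rows in this direction and for 7.14% in the other. The log2 difference was -0.45 ± 0.0959, a 1.37-fold fall (limma, adjusted p = 0.00639, between 0.00144 and 0.0522 over 18 settings). It missed the threshold only under quantile normalization. Together with its copy Gm28438 the fall was smaller, -0.30 ± 0.0846 (limma, adjusted p = 0.0365).

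mt-Nd6, which had risen between WT and KEAP1-KO tumors, had no called difference between KEAP1-KO and DKO tumors. It stood at 10.25, 10.48, 10.30 and 10.32 in KEAP1-KO and at 10.08, 10.25, 10.43 and 10.27 in DKO tumors, a difference of -0.08 ± 0.14 (limma, adjusted p = 0.827). mt-Nd5 differed by 0.10 ± 0.0643 (limma, adjusted p = 0.452). The KEAP1-KO tumors of the 2 experiments are different libraries, so the Experiment A and B results share no sample.

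mt-Co2 again had the lowest difference, -0.70 ± 0.54, with values of 10.88, 9.35, 11.10 and 11.77 in KEAP1-KO and 8.05, 10.91, 10.77 and 10.55 in DKO tumors. The groups overlapped, and without the first DKO tumor the difference shrank to -0.03. mt-Co1, the core subunit of complex IV, had the highest, 0.11 ± 0.12, with 16.06, 15.98, 16.18 and 16.18 in KEAP1-KO and 16.003, 16.23, 16.19 and 16.42 in DKO tumors. Neither passed the test (limma, adjusted p = 0.532 and 0.678). Under quantile normalization mt-Co1 was called higher, with a difference of 0.23 (limma, adjusted p = 0.0299), and with mt-Nd3 no longer called the count there was 1 higher and 0 lower. The median of the 13 mRNAs was -0.04, beside 0 over all rows. mt-Rnr1 stood at 10.25, 11.24, 10.95 and 10.92 in KEAP1-KO and at 12.22, 11.93, 10.59 and 11.08 in DKO tumors, with overlap (limma, adjusted p = 0.322).

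In the same comparison 8 of 8 leukocyte markers rose, with a median of 1.01, from sums between 1196 and 1566 to sums between 2174 and 3508, as did 5 of 9 macrophage, 3 of 7 fibroblast and 2 of 3 adipocyte markers. Skeletal muscle markers, 2 of 4 of which rose, summed to between 23.0 and 470 in DKO tumors and to at most 68.9 in the other tumors. Muscle is rich in mitochondria, and the part of muscle RNA in the DKO values was not tested.

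The KEAP1-KO tumors of the 2 experiments allow a comparison of equal genotypes. Experiment, flank and the genotype of the opposite tumor change together here and cannot be told apart. None of the 13 mRNAs was called between them, where limma called 0.164% of all rows (0.152% higher and 0.0117% lower), and none had an unadjusted p under 0.05. No mRNA had groups without overlap, against 2.55% of all rows higher and 1.56% lower. The differences, Experiment B minus Experiment A, ran from -0.09 (mt-Co1) to 0.23 (mt-Atp6), with mt-Nd6 at -0.0016 ± 0.14. Of the rRNAs, mt-Rnr1 had a difference of -0.74 ± 0.33 (limma, unadjusted p = 0.0407, adjusted p = 0.627). Of the host markers, 5 of 9 for macrophages and 3 of 8 for leukocytes were higher in Experiment B, and none was called for endothelium (0 of 7), fibroblasts (0 of 7), red blood cells (0 of 6), skeletal muscle (0 of 4) or adipocytes (0 of 3).

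Set against the WT tumors of Experiment A, the DKO tumors of Experiment B had 1 mRNA higher and 1 lower, with 10.6% of all rows called, 4.57% higher and 5.99% lower. Groups without overlap were 1 mRNA higher and 2 lower, against 7.47% and 9.03% of all rows. mt-Nd6 was higher by 0.52 ± 0.14 (limma, adjusted p = 0.0259) and lost the call in 7 of 17 alternative settings, with adjusted p of up to 0.0787. mt-Nd3 was lower by a difference of -0.47 ± 0.0959 (limma, adjusted p = 0.00465), and this call was kept in all 17 settings. Here experiment, flank side and genotype change together, and cannot be told apart. The difference of mt-Co2, -1.64 ± 0.54, was larger still and did not pass (limma, adjusted p = 0.0666). Of the host markers, 2 of 4 for skeletal muscle and 3 of 7 for fibroblasts were higher, 1 of 8 for leukocytes was lower, and none was called for macrophages (0 of 9), endothelium (0 of 7), red blood cells (0 of 6) or adipocytes (0 of 3), and their part was not tested.

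**Figure D3:**
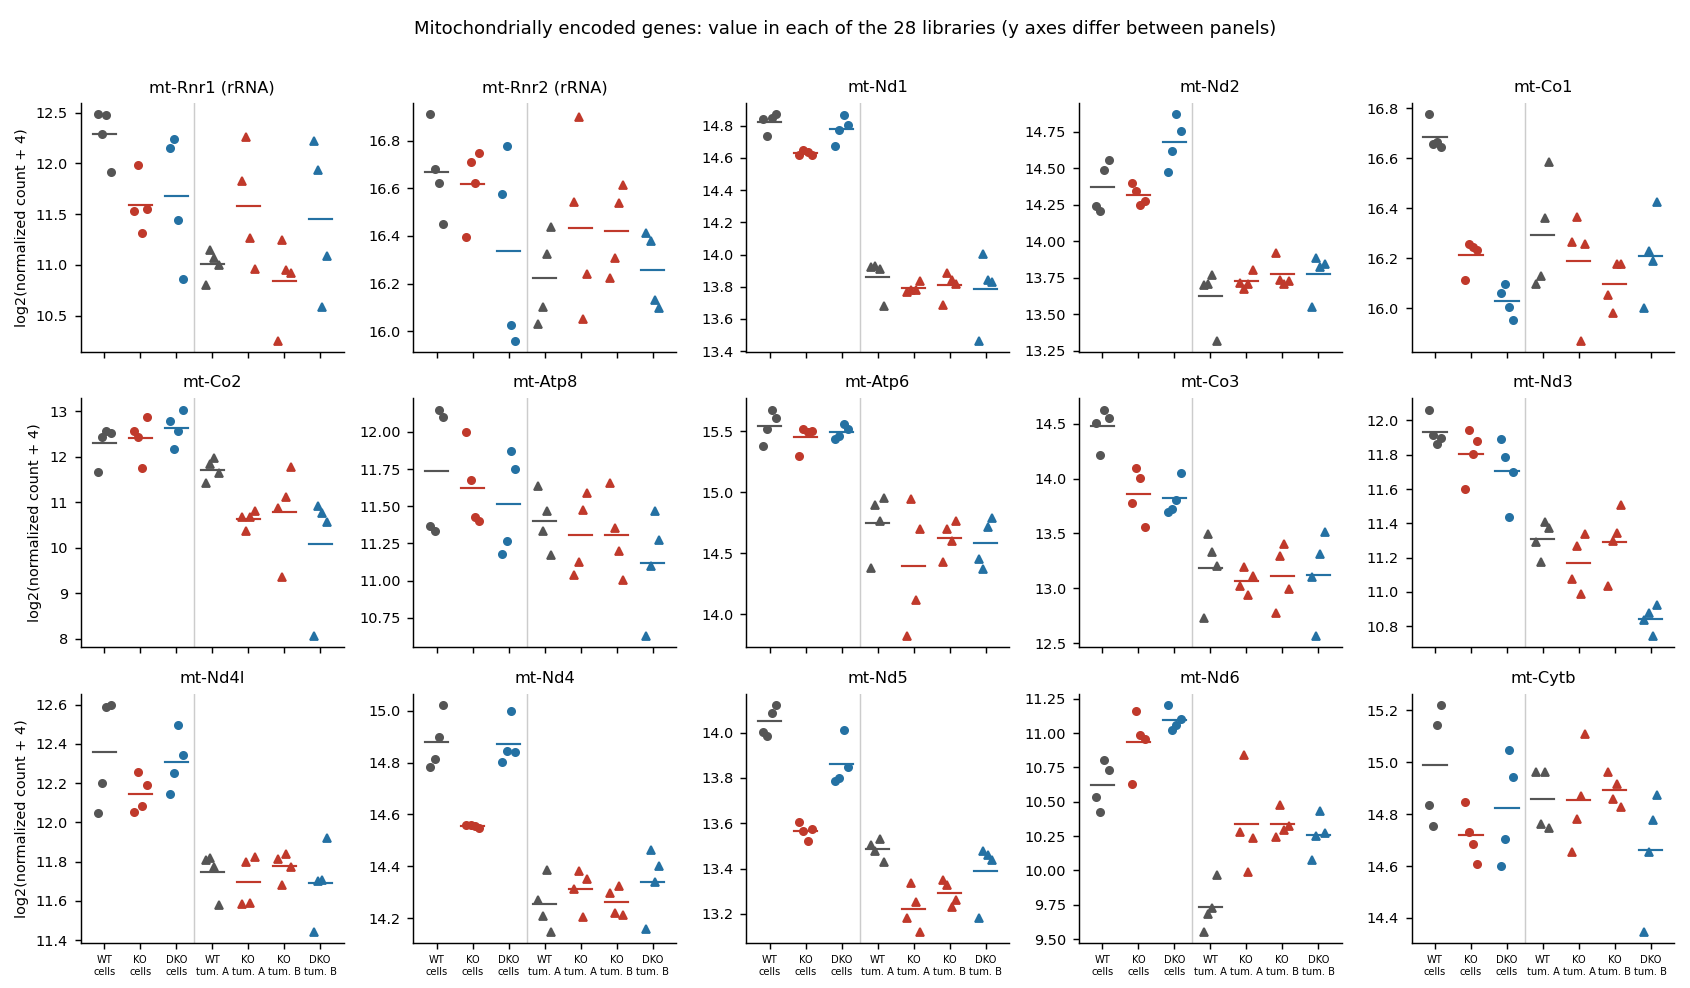
Deposited value, log2(normalized count + 4), of each of the 15 genes in each of the 28 libraries, with a bar at the mean of the 4 libraries of a group. Circles are cells, triangles tumors, grey is WT, red KEAP1-KO and blue DKO, and the y axes differ between panels. The WT tumors of mt-Nd6 (9.55 to 9.97) lie below all other groups, and the DKO tumors of mt-Nd3 (10.74 to 10.92) below all other groups.

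Cultured cells hold no host cells. In KEAP1-KO against WT cells limma called 15.5% of 29744 rows, 7.33% lower and 8.13% higher, and 5 of the 13 mRNAs fell while none rose. Quantile normalization gave 2 higher (mt-Nd1 and mt-Nd6) and 3 lower, and scaling to the total of all rows or of the rows that are not mitochondrial gave 1 higher (mt-Nd6) with 4 or 5 lower. The median difference of the 13 was -0.19, beside 0.02 over all rows, and 11 of 13 were below 0. The 5 genes that fell were the 5 whose groups did not overlap, which held for 9.66% of all rows in this direction and for 9.9% in the other.

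mt-Co1 and mt-Nd5 had the lowest adjusted p. mt-Co1 stood at 16.78, 16.66, 16.67 and 16.64 in WT and at 16.11, 16.26, 16.25 and 16.23 in KEAP1-KO cells, a difference of -0.47 ± 0.0425 (1.39-fold, limma, adjusted p = 7.27e-06). mt-Nd5 stood at 14.00, 13.99, 14.09 and 14.12 and at 13.61, 13.56, 13.52 and 13.57, a difference of -0.48 ± 0.0494 (1.40-fold, limma, adjusted p = 2.24e-05). For both genes the spread within each group was well below the difference. The mt-Nd5 call was kept in all 18 alternatives, and that of mt-Co1 was lost in 1, quantile normalization (limma, adjusted p = 0.359).

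mt-Co3 had the lowest difference, -0.62 ± 0.12 (1.53-fold, limma, adjusted p = 0.00376). Its values were 14.51, 14.22, 14.63 and 14.55 in WT and 13.78, 14.10, 14.00 and 13.56 in KEAP1-KO cells. The sum with its copy gave nearly the same difference with a smaller error, -0.63 ± 0.0600. mt-Nd4, a complex I subunit, fell by 0.32 (SE 0.0522, limma, adjusted p = 0.000868), from 14.78, 14.81, 14.90 and 15.02 to 14.56, 14.56, 14.56 and 14.55, and mt-Nd1, of the same complex, fell by 0.19 (SE 0.0408, limma, adjusted p = 0.00548). The mt-Co3 call was kept in all 18 alternatives, and that of mt-Nd4 was lost under quantile normalization (limma, adjusted p = 0.306). The mt-Nd1 call was lost in 2 of 18 alternatives, and under quantile normalization its difference was 0.0682, called in the other direction (limma, adjusted p = 0.0277).

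mt-Nd6 was above 0 in the cells too, by 0.31 ± 0.11, but did not pass the test (limma, adjusted p = 0.0708, and 13 of 18 alternatives did not pass either). Its values were 10.53, 10.42, 10.80 and 10.73 in WT and 10.63, 11.16, 10.98 and 10.96 in KEAP1-KO cells, and the groups overlapped. Of the rRNAs, mt-Rnr1 had values of 12.48, 12.29, 12.48 and 11.92 in WT and of 11.53, 11.98, 11.31 and 11.55 in KEAP1-KO cells, a difference of -0.70 ± 0.27 (limma, adjusted p = 0.106), while mt-Rnr2 differed by -0.05 (limma, adjusted p = 0.905). For mt-Rnr1, 17 of 18 alternatives did not pass, and it was called lower with only these groups in the fit (limma, adjusted p = 0.0174).

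Counting gene and copy together added 2 falls. mt-Co2, whose own row differed by 0.11 (limma, adjusted p = 0.852), then fell by 0.23 (SE 0.0342, limma, adjusted p = 0.000542), and mt-Atp6, a subunit of ATP synthase, fell by 0.21 (SE 0.0579, limma, adjusted p = 0.0276). With these sums all 3 mitochondrial mRNAs of complex IV were lower in KEAP1-KO cells.

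In DKO against KEAP1-KO cells limma called 8.83% of all rows, 3.98% higher and 4.85% lower. Here 4 of the 13 mRNAs rose, all of them complex I subunits, and 1 fell. Groups without overlap were the same 5 genes, 4 higher and 1 lower, against 6.64% and 7.84% of all rows. The median difference was 0.15, beside -0.03 over all rows. This comparison and that of KEAP1-KO with WT share the 4 KEAP1-KO libraries, so opposite signs in both are not independent.

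mt-Nd2 rose most, by 0.36 ± 0.0913 (limma, adjusted p = 0.0266), from 14.40, 14.34, 14.25 and 14.28 in KEAP1-KO to 14.47, 14.62, 14.87 and 14.76 in DKO cells, and the call was lost in 10 of 18 alternatives. mt-Nd4 rose by 0.32 ± 0.0522 (limma, adjusted p = 0.00177), to 14.80, 14.84, 15.00 and 14.84. mt-Nd5 rose by 0.30 ± 0.0494 (limma, adjusted p = 0.00188), to 13.79, 13.80, 14.01 and 13.85, and mt-Nd1 by 0.15 ± 0.0408 (limma, adjusted p = 0.0410), which was lost in 15 of 18 alternatives and at -0.0102 under quantile normalization. The gene that fell was mt-Co1, to 16.06, 16.10, 16.01 and 15.95, by a difference of -0.18 ± 0.0425 (limma, adjusted p = 0.0165), a call lost in 8 of 18 alternatives. Summed with Gm28661, mt-Co2 fell as well, by 0.16 (SE 0.0342, limma, adjusted p = 0.00889), although its own row was above 0 by 0.24 (limma, adjusted p = 0.701). With the sums 4 mRNAs were thus higher and 2 lower. The 5 calls on the deposited rows were less firm than those between KEAP1-KO and WT cells: the number of called mRNAs fell to 0 without a trend in the variance model, and leaving out 1 library left between 2 and 5. Without the second or the third KEAP1-KO library or the fourth DKO library 2 were called, and without the fourth KEAP1-KO or the third DKO library 3.

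In DKO against WT cells (17.7% of all rows called, 8.46% higher and 9.2% lower), 2 mRNAs were higher and 3 lower. Without overlap were 1 mRNA higher and 2 lower, against 9.84% and 11.4% of all rows. mt-Co1 had a difference of -0.66 ± 0.0425 (limma, adjusted p = 4.1e-07) and mt-Co3 of -0.66 ± 0.12 (limma, adjusted p = 0.00216), both without overlap. The mt-Co3 call was kept in all 18 alternatives. That of mt-Co1 was lost in 1, quantile normalization, with a difference of -0.22 (limma, adjusted p = 0.0934). mt-Nd5 had a difference of -0.19 (limma, adjusted p = 0.0203) with overlapping groups, and the call was lost in 10 of 18 alternatives, among them without WT library 3 or 4 or DKO library 1, 2 or 4. mt-Nd2 was higher by 0.30 (limma, adjusted p = 0.0370), also with overlap, and the call was lost in 9 of 18 alternatives, among them without WT library 1 or 2 or DKO library 2, 3 or 4. mt-Nd6 was higher by 0.47 ± 0.11 (limma, adjusted p = 0.00748) without overlap, with 11.21, 11.02, 11.06 and 11.10 in DKO cells. Summed with Gm28661, mt-Co2 was lower by a difference of -0.39 ± 0.0342 (limma, adjusted p = 5.47e-06), although its own row was above 0 by 0.35.

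The members of a complex did not all have the same order of genotypes, and no test by complex was run. The complex IV genes mt-Co1 and mt-Co3 were lower in KEAP1-KO and in DKO cells than in WT cells. Of the complex I genes, mt-Nd4 and mt-Nd1 averaged 14.56 and 14.63 in KEAP1-KO cells, lower than the 14.88 and 14.83 of WT and the 14.87 and 14.78 of DKO cells. mt-Nd5 and mt-Nd4l had the same order of means, 14.05, 13.57 and 13.86 and 12.36, 12.15 and 12.31 in WT, KEAP1-KO and DKO cells, mt-Nd4l being called in none of the 3 comparisons of cells. mt-Nd2, with 14.37, 14.32 and 14.68, and mt-Nd3, with 11.93, 11.81 and 11.70, had other orders. Summed with its copy, mt-Nd3 averaged 12.23, 12.08 and 12.13, the same order as mt-Nd4, and was called in none of the 3 comparisons of cells. mt-Nd6 averaged 10.62, 10.93 and 11.10 in WT, KEAP1-KO and DKO cells. mt-Cytb, of complex III, and mt-Atp8 were called in none of the 3 comparisons of cells.

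**Figure D4:**
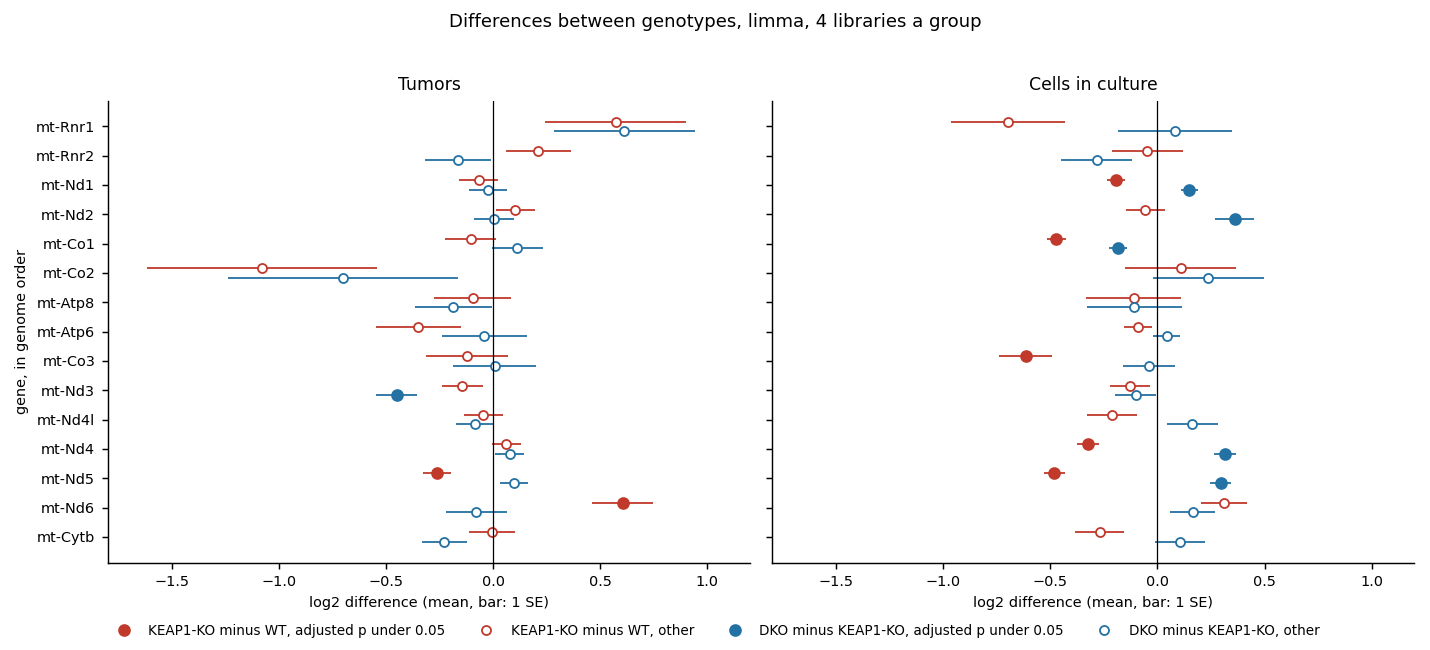
Log2 difference with 1 SE for the 15 genes in genome order, in tumors (left) and in cells (right), for KEAP1-KO minus WT (red) and DKO minus KEAP1-KO (blue). Filled points had an adjusted p under 0.05 in limma. In tumors only mt-Nd6, mt-Nd5 and mt-Nd3 are filled, and in cells 5 genes on the left of 0 for KEAP1-KO minus WT and 4 on the right and 1 on the left for DKO minus KEAP1-KO.

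Whether an effect of genotype differed between tumors and cells was tested directly, with all 28 libraries in the fit. For KEAP1-KO minus WT, 5.38% of 37246 rows differed between tumors and cells, 1.5% higher and 3.88% lower, and 1 of the 13 mRNAs, mt-Nd4. Its difference was 0.06 ± 0.0667 in tumors, where the WT values were 14.27, 14.21, 14.39 and 14.15 and the KEAP1-KO values 14.31, 14.38, 14.21 and 14.35, and -0.32 in cells. The difference between the 2 was 0.38 ± 0.0863 (limma, adjusted p = 0.00608). It missed the threshold in 4 of 26 alternatives, among them limma on libraries scaled to their totals (adjusted p = 0.0652) and without a trend (adjusted p = 0.0866), and was near 0 after quantile normalization. mt-Nd6 did not differ detectably between tumors and cells in this effect (0.29 ± 0.19, limma, adjusted p = 0.488). For DKO minus KEAP1-KO, where 3.67% of all rows differed (2.12% higher and 1.55% lower), limma called 0 of the 13 mRNAs and 5 had an unadjusted p under 0.05, as had 5173 of all 37246 rows.

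On the deposited scale, tumors and cells of the same genotype differed in most of the mRNAs. The KEAP1-KO comparison pooled the tumors of both experiments. Of the 13, 10 were lower in WT tumors than in WT cells, 10 in KEAP1-KO and 10 in DKO tumors, and none was higher. Rows called lower were 14.1%, 16.9% and 15.9% of all rows in these comparisons, rows called higher 24.7%, 27% and 27.6%, and rows called in either direction 38.8%, 44% and 43.5%. Groups did not overlap for 10, 8 and 10 mRNAs, all lower, against 13.8%, 12.3% and 15.1% of all rows lower and 21.9%, 17.1% and 25% higher. The median difference of the mRNAs was -0.62, -0.57 and -0.70. Over all rows the median was 0.20, 0.17 and 0.23. The normalized totals averaged 6475579 counts in cells and 4880793 in tumors, so a row with an equal share of reads has a lower value in tumors. The mean share of the mRNAs was 4.97%, 4.12% and 4.30% in WT, KEAP1-KO and DKO cells. In tumors it was 4.47% for WT, 4.08% and 4.15% for KEAP1-KO (Experiments A and B) and 4.44% for DKO.

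mt-Nd1 was the mRNA that kept its call under each scaling. It averaged 14.83, 14.63 and 14.78 in WT, KEAP1-KO and DKO cells and 13.86, 13.79, 13.81 and 13.78 in the 4 tumor groups, so that all tumors lay below all cells. The differences between tumors and cells were -0.96 ± 0.0744, -0.83 ± 0.0644 and -0.99 ± 0.0744 for the 3 genotypes, with adjusted p of at most 5.98e-11 in limma. It was called lower in each of the 10 settings with all libraries, the deposited scale included, in each of the 3 comparisons. The same was true of mt-Co3 and mt-Nd6 for WT, of mt-Atp6 for KEAP1-KO and of mt-Nd2 for DKO.

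mt-Nd2, mt-Co3, mt-Atp6 and mt-Nd6 were also below 0 in all 10 settings of each comparison, though not always called. The other 8 mRNAs were above 0 in some setting of at least 1 comparison. With libraries scaled to their totals the median of the mRNAs was -0.20, -0.21 and -0.23, and 6, 5 and 6 of 13 were called lower and 0, 2 and 2 higher. Of all 37246 rows, 3246, 4370 and 3828 were then lower and 13779, 13984 and 15206 higher. With quantile normalization 3, 4 and 3 mRNAs were called lower and 1, 2 and 2 higher, beside 6907, 7420 and 7382 of all rows lower and 6165, 7475 and 7204 higher. Median centring gave 12 of 13 lower in each, beside 8677, 8625 and 8845 of all rows lower and 4726, 6486 and 5911 higher. mt-Co1 had a difference of -0.39 for WT, -0.07 for KEAP1-KO and 0.18 for DKO on the deposited scale, and was above 0 for all 3 when scaled to the totals. mt-Cytb was called in none of the 3 comparisons on the deposited scale, with -0.13, 0.15 and -0.16, and was called higher in 3 of 10 settings for KEAP1-KO and for DKO and lower in 1 of 10 for WT and for DKO.

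The lowest differences between tumors and cells were those of mt-Co3 in WT, -1.29 ± 0.17, and of mt-Co2 in KEAP1-KO, -1.70 ± 0.40, and in DKO, -2.56 ± 0.47. Summed with Gm28661, mt-Co2 differed by -0.34 ± 0.0861 in WT (limma, adjusted p = 0.00239) and was called in neither of the other 2 genotypes. Of the rRNAs, mt-Rnr1 was lower in WT tumors, with a difference of -1.29 ± 0.32 (limma, adjusted p = 0.00218), and so was mt-Rnr2, with -0.44 ± 0.17 (limma, adjusted p = 0.0389), and neither was called for KEAP1-KO or DKO. The mt-Rnr2 call was lost in 9 of 17 alternatives (adjusted p of up to 0.913), among them without WT cell library 1, 2 or 3 or WT tumor 1 or 2, and its difference was 0.0947 under quantile normalization. The summed leukocyte markers were between 29.3 and 146 in the cells and between 756 and 3927 in the tumors. The part of host RNA in the lower values was not tested.

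**Figure D5:**
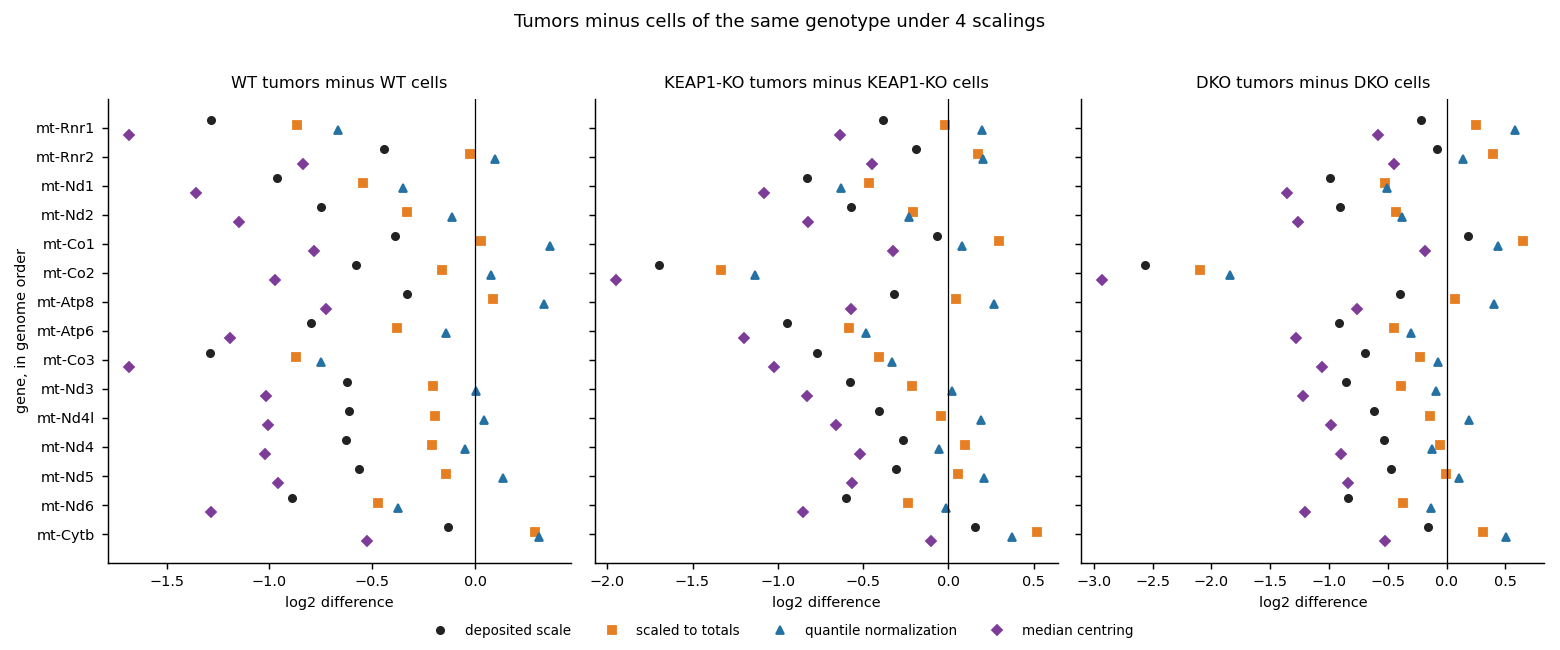
Log2 difference between tumors and cells of the same genotype for the 15 genes in genome order, on the deposited scale (black circles), scaled to library totals (orange squares), after quantile normalization (blue triangles) and after median centring (purple diamonds). mt-Nd1 lies left of 0 under all 4 scalings in all 3 panels, whereas mt-Co1 and mt-Cytb change side.

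The nuclear genes that make or serve the same complexes were listed for comparison. Each row is 1 gene or 1 transcript of it. The shares of all rows to set beside the counts are 5.61% higher and 7.49% lower for KEAP1-KO against WT tumors, 4.22% and 4.64% for DKO against KEAP1-KO tumors, 8.13% and 7.33% for KEAP1-KO against WT cells, and 3.98% and 4.85% for DKO against KEAP1-KO cells. Of the nuclear subunits and assembly factors of the respiratory chain and ATP synthase, 9 of 88 rows rose and 4 fell in KEAP1-KO against WT tumors. In DKO against KEAP1-KO tumors 1 rose and 17 fell, with a median of -0.27, beside 0 over all rows. The cells had 9 higher and 9 lower of 84 in KEAP1-KO against WT, and 2 higher and 5 lower in DKO against KEAP1-KO. A transcript of Ndufa4, a complex IV-associated subunit, rose by 0.73 ± 0.11 in KEAP1-KO tumors (limma, adjusted p = 0.000194) and differed by -1.01 ± 0.11 in DKO tumors (limma, adjusted p = 1.54e-05). Ndufb1, a complex I subunit, had a difference of -0.63 in DKO tumors (limma, adjusted p = 0.000686).

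Ribosomal proteins of the mitochondrion had 5 rows higher and 7 lower of 76 in KEAP1-KO tumors, and 0 higher and 17 lower in DKO against KEAP1-KO tumors. In cells 13 were higher and 9 lower of 78 for KEAP1-KO, and 1 higher and 6 lower for DKO against KEAP1-KO. A transcript of Mrpl49, which belongs to the large ribosomal subunit, had differences of -0.69 ± 0.13 in KEAP1-KO tumors and of -0.91 ± 0.0526 in KEAP1-KO cells (limma, adjusted p = 0.00179 and 1.56e-07).

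Among the genes for transcription, processing and stability of mitochondrial RNA, 3 of 30 rows rose and 2 fell in KEAP1-KO tumors, and 0 rose and 4 fell in DKO against KEAP1-KO tumors. Cells had 4 higher and 1 lower of 31 for KEAP1-KO, and 0 higher and 2 lower for DKO against KEAP1-KO. A transcript of Tfb2m, which opens the promoters for the mitochondrial polymerase, was higher by 1.16 ± 0.34 in KEAP1-KO cells (limma, adjusted p = 0.0357). Trmt10c, a subunit of the RNase that cuts the 5′ ends of mitochondrial tRNAs, was higher by 0.53 ± 0.0623 there (limma, adjusted p = 6.83e-05). A transcript of Tefm, the elongation factor of that polymerase, had a difference of -0.78 in DKO tumors (limma, adjusted p = 0.0416).

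Of 9 rows for the upkeep of mitochondrial DNA, 3 fell in KEAP1-KO tumors and 3 in KEAP1-KO cells, and none rose. Twnk, the helicase of mitochondrial replication, had a difference of -0.61 ± 0.0972 in DKO against KEAP1-KO tumors and of -0.41 ± 0.0556 in DKO against KEAP1-KO cells (limma, adjusted p = 0.000639 and 0.00039). A transcript of Pprc1, a coactivator of the PGC-1 family that drives mitochondrial biogenesis, fell in all 4 comparisons of adjacent genotypes. In these comparisons it was the only 1 of the 5 biogenesis rows tested in tumors and 4 in cells to be called. Its differences were -0.77 in KEAP1-KO and -0.53 in DKO tumors, and -0.52 in KEAP1-KO and -0.29 in DKO cells (limma, adjusted p = 3e-05, 0.00144, 0.000352 and 0.0331). Of the enzymes that load mitochondrial tRNAs, 1 of 17 was higher and 1 lower in KEAP1-KO against WT tumors, and 2 were higher and 2 lower in DKO against KEAP1-KO tumors. In cells 2 of 18 were higher and 3 lower for KEAP1-KO against WT, and 3 higher and 1 lower for DKO against KEAP1-KO. Between the KEAP1-KO tumors of the 2 experiments none of these nuclear lists had a called row.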

How the data were processed

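Per the methods and labels, the authors depleted rRNA from total RNA, made directional libraries, sequenced 150-base pairs and quantified with Salmon (Galaxy version 1.5.1) against mouse transcripts version 35 of GENCODE. The table the authors deposited holds log2 values, log2(normalized count + 4), not the TPM of the methods: the minimum is 2, and undoing the log gave whole reads (within 0.05) for 100% of low values. These recovered reads, 4222380 to 7524278 per library, gave the depth and the shares. No count model was run. Between 13.9% and 23.5% of rows were at 0, and low rows understate fold changes. No column was left unmapped (0).

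Groups came from the sample titles. limma 3.58.1 in R 4.3.3 (lmFit, eBayes with trend) was run on rows reaching 5 normalized counts in 4 or more libraries, for the 16 tumors, the 12 cell libraries or all 28, with Benjamini-Hochberg adjustment over all rows tested and a threshold of 0.05, and was tested on simulated data. Nuclear copies were found with blastn 2.17.0 (at least 95% identity over at least 100 bases). The reference used here, GENCODE vM21 on GRCm38, may differ from the authors' release. The design had assumed TPM and was applied to the deposited log2 values.

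Members and lists were chosen with earlier results of these data known. All members are accounted for. By rule, values per library were given for the mRNAs with the highest and the lowest difference in each comparison of adjacent genotypes, mt-Nd6 and the rRNAs, and up to 3 called rows with the largest absolute difference could be named from each nuclear list; the called mRNAs given per library beyond these were chosen after their values were seen. Alternatives were other scalings, quantile normalization, median centring, no filter, a pseudocount of 1, no trend, only the groups compared, a block for the replicate number, leaving out single libraries, and, chosen after seeing the data, gene plus copy and shares without the 2 highest small RNA rows.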

Additional observations from a re-analysis of the deposited data

Results flagged for a closer look

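In 8 of 119 groups of 4 libraries examined, 1 library stood far from the other 3 by Dixon's ratio, where chance alone gives about 1 in 20. All values are log2(normalized count + 4). The fourth WT tumor of Experiment A was low for mt-Nd1, at 13.68 against 13.91 to 13.93, and for mt-Nd2, at 13.32 against 13.70 to 13.77. The first KEAP1-KO tumor of Experiment B was high for mt-Nd2, at 13.92 against 13.71 to 13.73. The first KEAP1-KO cell library was low for mt-Co1, at 16.11 against 16.23 to 16.26, and for mt-Atp6, at 15.30 against 15.50 to 15.52. The first WT cell library was low for mt-Co2, at 11.66 against 12.42 to 12.55. The first DKO tumor was low for mt-Co2, at 8.05 against 10.55 to 10.91, and for mt-Nd5, at 13.18 against 13.44 to 13.48.

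The effect of KEAP1 loss on mt-Nd4 differed between tumors and cells by 0.38 ± 0.0863 (limma, all 28 libraries, adjusted p = 0.00608).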

How the results depend on the processing

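The lowest member value was 239 reads, for mt-Co2 in the first DKO tumor, and mt-Nd6 had at least 833 reads in each library. The limits are 4 libraries a group, edited lines that are clones, reads shared with nuclear copies, and the scale between tumors and cells. Among the values of single members under other settings, 76 of 1725 lost the call, 33 gained it and 31 turned that were called as reported or under the alternative, and 1585 kept their side of the threshold, 94 values that were not called changing sign. With 1 library left out, 36 of 1740 lost the call and 6 gained it, and 1698 kept their side, 96 values that were not called changing sign. The cause of the changes below was not tested.

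The number of called mRNAs changed as follows. In KEAP1-KO against WT tumors it was 4 with quantile normalization and 1 with no trend (2 as reported), and in DKO against WT tumors 1 with no trend (2 as reported). In DKO against KEAP1-KO cells, 5 as reported, it was 3 scaled to either total, 2 with no filter, 1 with quantile normalization, 3 with median centring and 0 with no trend. In DKO against WT cells, 5 as reported, it was 3 scaled to the rows that are not mitochondrial, 3 with no trend and 3 with only the groups compared. Between tumors and cells, 10 as reported, it was 6 for WT scaled to all rows, and 4, 6 and 5 for WT, KEAP1-KO and DKO with quantile normalization. For the KEAP1 effect in tumors minus cells, 1 as reported, it was 0 scaled to either total, 0 with quantile normalization, 0 with no trend, 3 with median centring and 2 with only the groups compared, and for the NRF2 effect, 0 as reported, 3 with median centring. With 1 library left out the counts ran from 1 to 2 in DKO against WT tumors (1 without WT tumor 1, 2 or 3 or DKO tumor 3 or 4), from 2 to 5 in DKO against KEAP1-KO cells, from 3 to 4 in DKO against WT cells (3 without DKO library 2 or 4) and from 1 to 2 for the KEAP1 effect (2 without WT tumor 4 or KEAP1-KO tumor 3 of Experiment A).

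The deviations of same-numbered libraries correlated little, with 20 correlations between -0.03 and 0.03. Whether same-numbered tumors came from the same mouse cannot be decided from these values. With the replicate block the count in DKO against KEAP1-KO cells was 3, and it was within 1.5 times of the reported one in the other comparisons that allow a block. In WT and DKO cells all 4 libraries correlated best with their own number, which is a hint from the data and not the design.

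The mean mRNA share, for the 3 genotypes of cells and then Experiment A (WT, KEAP1-KO) and Experiment B (KEAP1-KO, DKO), was 5.75%, 4.75%, 4.94%, 5.06%, 4.67%, 4.75% and 5.04% without the 20 highest rows that are not mitochondrial, and 5.88%, 4.78%, 4.84%, 5.54%, 5.16%, 5.14% and 5.44% with the copies added. Without the 2 highest small RNA rows it was 4.32% in KEAP1-KO cells, 4.65% in WT tumors and 4.33% in KEAP1-KO tumors of Experiment B.

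Differences that turned were these. mt-Co2 plus its copy was at -0.23, -0.16 and -0.39 in KEAP1-KO against WT, DKO against KEAP1-KO and DKO against WT cells. With quantile normalization mt-Nd1 was at 0.0682 and -0.0102 in the first 2 of these, and mt-Nd4 at -7.77e-05 in the KEAP1 effect. Between tumors and cells, scaled to all rows and to the rows that are not mitochondrial, mt-Co1 was at 0.0286 and 0.0225 for WT and at 0.29 and 0.30 for KEAP1-KO, mt-Nd4 at 0.10 and 0.10 and mt-Nd5 at 0.0540 and 0.0631 for KEAP1-KO, and mt-Rnr2 at 0.39 and 0.41 and mt-Cytb at 0.31 and 0.33 for DKO, where mt-Nd5 was at 0.0137 in the second. With quantile normalization WT had mt-Rnr2 at 0.0947, mt-Co1 at 0.36, mt-Nd3 at 0.0034, mt-Nd4l at 0.0447 and mt-Nd5 at 0.14, KEAP1-KO had mt-Rnr2 at 0.20, mt-Nd3 at 0.0187, mt-Nd4l at 0.19 and mt-Nd5 at 0.21, and DKO had mt-Nd4l at 0.19, mt-Nd5 at 0.11 and mt-Cytb at 0.50.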
